A study of Mus musculus with 48 samples.

Results

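The genes examined here are the glucocorticoid receptor gene Nr3c1 and 8 of its target genes, namely Fkbp5, Sgk1, Tsc22d3, Zbtb16, Pdk4, Sult1a1, Plin4 and Errfi1. They were taken by name from a list chosen with earlier results of these data known. They are 9 genes of the 48795 in the deposited tables, and all 9 passed the filter on low counts that left 20010 genes. The tables hold RNA sequencing of 48 mice, 1 library of cerebral cortex each, dissected at an age of 6 months, and all mice are listed under the C57BL/6 background. The 6 groups were 8 Q140 x Msh3-/- mice, 8 Q140 x Msh3+/- mice, 8 Q140 mice, 8 Msh3-/- mice, 9 Msh3+/- mice and 7 wild-type (WT) mice. The Q140 knock-in places an expanded CAG repeat in the huntingtin gene Htt to model Huntington's disease, and its carriers here are heterozygous, per the labels. Msh3 encodes a DNA mismatch repair protein, and the labels name mice with 1 or 2 altered alleles Msh3+/- and Msh3-/-. Msh3+/- held 4 males and 5 females, WT held 4 males and 3 females, and each other group held 4 of each sex.

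Glucocorticoids are steroid hormones of the adrenal cortex, chiefly corticosterone in mice, and their blood level follows a daily rhythm and the response to stress. In the unbound state the glucocorticoid receptor sits in the cytoplasm in a complex with heat shock proteins and immunophilins. On binding hormone it moves to the nucleus, where it acts as a transcription factor at palindromic DNA elements or through other factors. Its targets in brain include genes that damp the hormone's own action, such as Fkbp5, and genes of metabolism and growth control.

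The targets have different roles. Fkbp5 encodes a co-chaperone that lowers the receptor's affinity for hormone. Sgk1 encodes a kinase that regulates ion channels and transporters, Tsc22d3 encodes GILZ, which inhibits the transcription factors AP-1 and NF-kappa B, and Zbtb16 encodes a zinc finger transcription factor. Pdk4 encodes a kinase that inhibits pyruvate dehydrogenase, Sult1a1 a sulfotransferase of phenols, Plin4 a protein of the coat of lipid droplets, and Errfi1 a feedback inhibitor of the EGF receptor.

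Promoter sequences are shown for 4 of the 5 genes whose RNA moved together most closely across mice and for Sgk1, so that the receptor's binding motif can be seen where it is present. RefSeq windows of GRCm38.p6, from 250 bases before to 50 bases after an annotated start, were matched for 7 of the 9 genes, 15 windows in all, and not for Nr3c1 and Zbtb16. The palindromic element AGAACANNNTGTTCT was searched for on both strands, and so was its 6-letter arm TGTTCT, whose matches include both arms of the whole element. The whole element was found in 3 of 32851 windows of all genes (0.00913%), 1 of them a window of Sgk1. The arm alone was found in 6233 windows (19.0%), and in 5 of the 15 windows here, which belong to 3 genes: Sgk1, Tsc22d3 and Sult1a1. Capitals mark the whole element or the arm, and each sequence is on the strand of its gene. Sgk1 and Tsc22d3 have several windows each, and the window printed is 1 that holds a motif. The Sgk1 window printed is chr10:21993640-21993939 (plus), with the element starting at -189 from the annotated start and another arm at -242. The other windows of Sgk1 hold an arm alone or neither motif, and the other windows of Tsc22d3 hold neither. The Tsc22d3 window printed is chrX:140600473-140600772 (minus), with an arm at -185. The Sult1a1 window is chr7:126676369-126676668 (minus), with arms at -212 and -34. The Fkbp5 window, chr17:28486100-28486399 (minus), and the Plin4 window, chr17:56109733-56110032 (minus), hold neither motif.
Sgk1: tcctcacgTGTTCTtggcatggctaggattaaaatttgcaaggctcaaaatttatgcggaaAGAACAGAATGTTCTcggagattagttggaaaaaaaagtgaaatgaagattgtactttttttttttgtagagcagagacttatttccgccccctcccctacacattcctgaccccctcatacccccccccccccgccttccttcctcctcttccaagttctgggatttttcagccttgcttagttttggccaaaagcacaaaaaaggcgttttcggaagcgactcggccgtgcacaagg
Tsc22d3: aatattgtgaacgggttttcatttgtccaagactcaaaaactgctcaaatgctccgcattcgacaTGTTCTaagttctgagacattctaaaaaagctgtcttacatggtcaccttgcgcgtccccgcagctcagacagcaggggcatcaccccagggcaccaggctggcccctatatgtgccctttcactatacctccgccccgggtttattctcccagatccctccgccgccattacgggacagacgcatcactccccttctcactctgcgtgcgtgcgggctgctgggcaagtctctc
Sult1a1: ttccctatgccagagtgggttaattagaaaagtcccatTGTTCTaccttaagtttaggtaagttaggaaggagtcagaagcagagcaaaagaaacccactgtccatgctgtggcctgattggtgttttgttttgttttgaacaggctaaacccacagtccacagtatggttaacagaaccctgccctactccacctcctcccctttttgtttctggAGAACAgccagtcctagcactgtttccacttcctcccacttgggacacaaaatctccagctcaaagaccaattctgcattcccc
Fkbp5: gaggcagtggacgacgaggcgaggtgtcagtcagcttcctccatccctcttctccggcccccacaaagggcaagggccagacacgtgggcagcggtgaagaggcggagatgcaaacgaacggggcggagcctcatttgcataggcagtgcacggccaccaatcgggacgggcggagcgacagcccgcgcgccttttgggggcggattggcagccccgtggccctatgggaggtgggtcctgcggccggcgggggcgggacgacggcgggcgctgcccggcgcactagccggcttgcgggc
Plin4: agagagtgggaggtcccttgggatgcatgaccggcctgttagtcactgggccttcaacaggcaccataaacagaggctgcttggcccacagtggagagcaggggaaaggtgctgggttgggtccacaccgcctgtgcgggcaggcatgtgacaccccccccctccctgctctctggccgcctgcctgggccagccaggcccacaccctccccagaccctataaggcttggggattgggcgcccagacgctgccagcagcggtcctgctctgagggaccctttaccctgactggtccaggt
These windows are short, and receptor elements of Fkbp5 are known in its introns, so a window without the letters carries no information on binding elsewhere.

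On GRCm38 the protein-coding gene Nr3c1 (ENSMUSG00000024431) lies on chromosome 18 at 39410545 to 39519421 on the minus strand. Fkbp5 (ENSMUSG00000024222) lies on chromosome 17 at 28399094 to 28517527 on the minus strand, and Plin4 (ENSMUSG00000002831) on the same chromosome and strand at 56100591 to 56109803. Sgk1 (ENSMUSG00000019970) lies on chromosome 10 at 21882184 to 21999903 on the plus strand, and Tsc22d3 (ENSMUSG00000031431) on chromosome X at 140539528 to 140600659 on the minus strand. Zbtb16 (ENSMUSG00000066687), Pdk4 (ENSMUSG00000019577) and Sult1a1 (ENSMUSG00000030711) lie on the minus strands of chromosomes 9, 6 and 7. Errfi1 (ENSMUSG00000028967) lies on the plus strand of chromosome 4.

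Library totals of the deposited counts ran from 35.9 M to 64.5 M, with a median of 46.8 M. Levels are given as CPM, counts scaled to the library total with TMM factors. Msh3, the altered gene, had 99.1 to 125 CPM in mice with 2 altered alleles, 61.2 to 77.4 CPM in mice with 1, and 21.8 to 25.9 CPM in mice with 0, so the RNA followed the labels' allele number but was higher, not lower, in mice labelled +/- and -/-. Htt had 225 to 257 CPM in Q140 carriers and 225 to 259 CPM in mice without Q140. The cortical excitatory neuron marker Slc17a7 was present in every library, at 195 to 259 FPKM. The 3 libraries of Msh3-/- female 4, WT male 3 and Msh3-/- female 3 had the highest level of the choroid plexus marker Ttr, which ranged from 0.533 to 881 FPKM. Another 3, those of Q140 x Msh3-/- male 4, Q140 male 1 and Msh3+/- male 2, lay farthest out on the second principal component, and the call that changed without either set, that of Zbtb16 with Pdk4, is given beside it.

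Per unit of gene length, in the deposited FPKM, the most abundant of the 9 RNAs were Zbtb16 at 19.6 ± 4.34 and Nr3c1 at 18.1 ± 1.37 FPKM (SD, n = 48). Tsc22d3 followed at 16.9 ± 2.98 FPKM, Sgk1 at 14.9 ± 2.79 FPKM and Errfi1 at 7.68 ± 0.654 FPKM. Fkbp5 and Sult1a1 averaged 4.54 ± 1.37 and 4.54 ± 1.45 FPKM, Pdk4 3.21 ± 0.378 FPKM and Plin4 1.05 ± 0.987 FPKM. The receptor's RNA was thus among the more abundant, and the lipid droplet gene the least abundant. The spread between mice ran in another order. Plin4 varied most, with 0.602 CPM in its lowest and 30.3 CPM in its highest mouse, a 50.3-fold range that rests on 30 to 1590 counts per library. Sult1a1 varied 3.47-fold, Fkbp5 3.38-fold, Sgk1 2.38-fold, Tsc22d3 2.16-fold and Zbtb16 2.14-fold between the lowest and the highest mouse. Pdk4, Nr3c1 and Errfi1 varied least, by 1.51-fold, 1.47-fold and 1.46-fold.

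The receptor gene Nr3c1 had a lowest, median and highest level of 130, 139 and 147 CPM in Q140 x Msh3-/- mice, 120, 141 and 151 CPM in Q140 x Msh3+/- mice, and 119, 136 and 145 CPM in Q140 mice. The same 3 values were 115, 131 and 135 CPM in Msh3-/- mice, 103, 137 and 147 CPM in Msh3+/- mice, and 118, 132 and 149 CPM in WT mice. The ranges of all 6 groups overlapped, and 1 mouse, Msh3+/- male 2, lay below all others at 103 CPM.

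Fkbp5, the co-chaperone, had a lowest, median and highest level of 21.9, 29.6 and 34.7 CPM in Q140 x Msh3-/- mice, 19.9, 30.1 and 58.5 CPM in Q140 x Msh3+/- mice, and 17.3, 23.9 and 42.8 CPM in Q140 mice. It had 17.6, 27.1 and 38.7 CPM in Msh3-/- mice, 21.7, 27.2 and 51.0 CPM in Msh3+/- mice, and 20, 24.3 and 45.8 CPM in WT mice. In the order of medians, from Q140 x Msh3+/- at the top to Q140 at the bottom, no neighbouring groups were apart by more than the spread within them. The highest mouse of all was Q140 x Msh3+/- female 1.

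Plin4 had a lowest, median and highest level of 2.02, 5.35 and 11.6 CPM in Q140 x Msh3-/- mice, 0.602, 4.64 and 30.3 CPM in Q140 x Msh3+/- mice, and 0.842, 3.48 and 15.8 CPM in Q140 mice. It had 0.855, 6.03 and 8.73 CPM in Msh3-/- mice, 1.32, 4.26 and 15.1 CPM in Msh3+/- mice, and 0.886, 2.86 and 21.0 CPM in WT mice. Each group held mice that differed several-fold, and the group medians lay well inside those ranges.

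Sult1a1 had a lowest, median and highest level of 4.85, 6.93 and 9.98 CPM in Q140 x Msh3-/- mice, 3.57, 6.75 and 12.4 CPM in Q140 x Msh3+/- mice, and 4.05, 6.17 and 10.6 CPM in Q140 mice. It had 4.04, 6.81 and 9.04 CPM in Msh3-/- mice, 4.38, 6.31 and 11.5 CPM in Msh3+/- mice, and 4.26, 5.24 and 11.6 CPM in WT mice. The highest mouse was again Q140 x Msh3+/- female 1.

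Zbtb16 had a lowest, median and highest level of 72.3, 111 and 135 CPM in Q140 x Msh3-/- mice, 70.5, 110 and 144 CPM in Q140 x Msh3+/- mice, and 67.7, 100 and 140 CPM in Q140 mice. It had 67.6, 99.8 and 138 CPM in Msh3-/- mice, 73.0, 88.6 and 123 CPM in Msh3+/- mice, and 73.7, 93.8 and 138 CPM in WT mice. The 3 highest group medians were those of the Q140 carriers, with ranges that overlapped those of the other groups almost entirely.

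Tsc22d3, which encodes GILZ, had a lowest, median and highest level of 65.6, 74.0 and 90.5 CPM in Q140 x Msh3-/- mice, 49.7, 71.8 and 100 CPM in Q140 x Msh3+/- mice, and 54.4, 69.7 and 105 CPM in Q140 mice. It had 56.7, 76.9 and 82.3 CPM in Msh3-/- mice, 57.0, 70 and 96.0 CPM in Msh3+/- mice, and 60, 70.4 and 107 CPM in WT mice. The medians differed by less than the range inside any group.

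Sgk1, the kinase, had a lowest, median and highest level of 56.7, 77.5 and 84.7 CPM in Q140 x Msh3-/- mice, 45.6, 67.7 and 109 CPM in Q140 x Msh3+/- mice, and 54.5, 71.9 and 87.6 CPM in Q140 mice. It had 59.0, 68.5 and 80.1 CPM in Msh3-/- mice, 58.1, 80.7 and 101 CPM in Msh3+/- mice, and 57.4, 79.4 and 98.9 CPM in WT mice. The group with the lowest median, Q140 x Msh3+/-, also held the highest mouse.

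Pdk4, the inhibitor of pyruvate dehydrogenase, had group medians between 10.4 CPM in Msh3+/- mice, whose range was 9.5 to 12.2 CPM, and 12.7 CPM in WT mice, whose range was 10.7 to 13.5 CPM. Errfi1 had group medians between 25.8 CPM in Msh3-/- mice, whose range was 24.1 to 27.3 CPM, and 29.4 CPM in WT mice, whose range was 24.6 to 32.2 CPM. For both genes these extreme groups overlapped, although WT lay highest by the median.

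**Figure D1:**
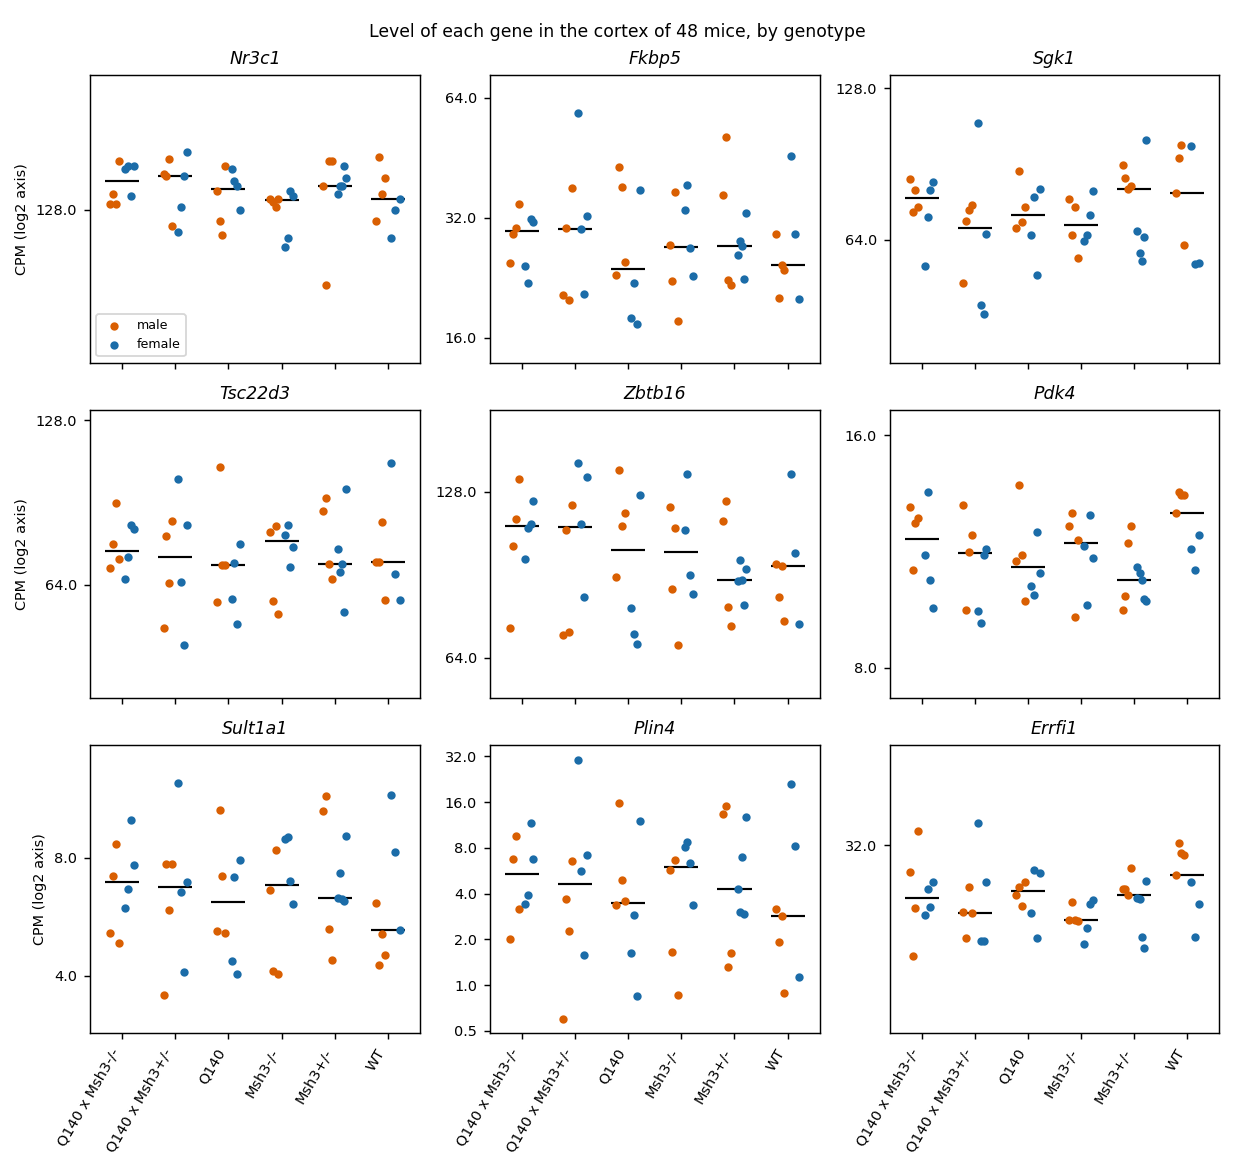
Level of each of the 9 genes in every mouse, in CPM on a log2 axis, by genotype (male orange, female blue), with a bar at the group median. For every gene the ranges of the 6 groups overlap, and the points of a group spread most for Plin4 (0.602 to 30.3 CPM over all mice).

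The genotype comparisons asked whether the Q140 allele or the altered Msh3 alleles changed these RNAs. None of the 9 genes passed an adjusted p of 0.05 in any of the comparisons of genotype or sex, in edgeR's quasi-likelihood test with Benjamini-Hochberg adjustment over all 20010 genes. Over the 108 tests of 9 genes in 12 comparisons the unadjusted p was under 0.05 in 5 (4.63%), beside 7.54% of the tests of all genes, and the smallest adjusted p was 0.0975. Few genes of any kind passed: 0.01% of all genes in Q140 against WT, 0.015% in Q140 x Msh3+/- against Msh3+/-, 0.0% in Q140 x Msh3-/- against Msh3-/-, and 0.035% for Q140 averaged over the 3 Msh3 genotypes. For the altered Msh3 alleles the share was 0.025% in Msh3+/- against WT, 0.035% in Msh3-/- against WT, 0.02% in Q140 x Msh3+/- against Q140 and 0.045% in Q140 x Msh3-/- against Q140. It was 0.0% for the Q140 effect in Msh3-/- minus that in WT, 0.0% for the effect in Msh3+/- minus that in WT, and 0.0% for the effect in males minus that in females. In 62 alternative settings 0 of the 9 genes passed in any comparison, DESeq2 and limma included. Comparisons that use the same WT, Q140 or Msh3-altered mice share those animals and are not independent of each other.

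Averaged over the 3 Msh3 genotypes, the 24 Q140 carriers set against the 24 mice without Q140 gave small differences with intervals around 0. Nr3c1 had a log2 difference of 0.05 ± 0.03 (SE, 95% interval -0.02 to 0.11) and averaged 137 ± 9.48 CPM in carriers and 132 ± 11 CPM in mice without Q140 (SD, n = 24 each). Fkbp5 had a log2 difference of 0.04 ± 0.12 (-0.20 to 0.28), with 29.2 ± 9.40 CPM in carriers and 28.6 ± 8.34 CPM in mice without Q140. Zbtb16 had a log2 difference of 0.13 ± 0.09 (-0.05 to 0.31), with 105 ± 24.3 CPM in carriers and 95.6 ± 19.8 CPM in mice without Q140. Sgk1 had -0.06 ± 0.08 (-0.21 to 0.09) and Tsc22d3 -0.03 ± 0.07 (-0.17 to 0.12) on the same scale. For Plin4 the difference of 0.13 ± 0.34 had an interval of -0.56 to 0.83, so at this spread between mice changes inside those bounds stay compatible with the data.

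The smallest unadjusted p-values belonged to Pdk4, Errfi1 and Nr3c1. Pdk4 averaged 10.5 ± 0.895 CPM in Msh3+/- mice (SD, n = 9) and 12.4 ± 1.11 CPM in WT mice (n = 7), a log2 difference of -0.22 ± 0.07 (edgeR adjusted p = 0.351). In Q140 mice it averaged 11.1 ± 1.34 CPM (n = 8), against the same WT mice, a log2 difference of -0.16 ± 0.07 (edgeR adjusted p = 0.892). Errfi1 averaged 26 ± 1.11 CPM in Msh3-/- mice and 29.2 ± 2.65 CPM in WT mice, a log2 difference of -0.16 ± 0.06 (edgeR adjusted p = 0.848). Nr3c1 averaged 139 ± 7.48 CPM in Q140 x Msh3-/- mice and 128 ± 7.34 CPM in Msh3-/- mice (SD, n = 8 each), a log2 difference of 0.12 ± 0.05 (edgeR adjusted p = 0.725). None of the 4 passed once the p-values were adjusted over 20010 genes.

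Between the 24 males and the 24 females 5.56% of all genes passed the threshold, and 0 of the 9 did. Pdk4 came closest, with 11.7 ± 1.38 CPM in males and 10.8 ± 1.06 CPM in females (SD, n = 24 each) and a log2 difference of 0.11 ± 0.04 (edgeR adjusted p = 0.0975, and 0.0521 without Q140 x Msh3-/- female 2). Plin4 had 0.602, 3.27 and 15.8 CPM in males and 0.842, 5.98 and 30.3 CPM in females as lowest, median and highest values, and a log2 difference of -0.60 ± 0.35 (edgeR adjusted p = 0.333). Sult1a1 had a median of 5.59 CPM in males and 6.98 CPM in females (log2 difference -0.19 ± 0.13), and Sgk1 a median of 74.9 CPM in males and 65.6 CPM in females (0.12 ± 0.08). Nr3c1 averaged 134 CPM in males and 135 CPM in females.

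Other genes of hormone handling were examined from lists chosen with the roles of these genes in mind. With the lists of cell type markers, immediate early genes and clock genes used below, 155 list genes could be tested. Of these 155 genes, 0 passed in a comparison of genotype. In males against females Hsd11b1, the enzyme that regenerates active glucocorticoid inside cells, was higher in males by 0.14 ± 0.04 on the log2 scale (edgeR adjusted p = 0.0177). It was 1 of 6 tested genes of steroid access and metabolism that passed, beside 5.56% of all genes. Of the 12 genes of both steroid receptors and their chaperones, 1 passed: Hspa4, a heat shock protein, fell by 0.08 in males (SE 0.02, edgeR adjusted p = 0.0283). Among 25 other glucocorticoid targets 1 passed, Gpd1, a glycerol phosphate dehydrogenase, which fell by 0.10 in males (SE 0.03, edgeR adjusted p = 0.0355), and the median log2 difference of those 25 genes was -0.06. Shares of 1 in 12 and 1 in 25 lie near the 5.56% of all genes and say nothing particular of these lists. Of the immediate early genes 3 of 15 passed, all higher in males, and of the astrocyte markers 3 of 8.

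Although genotype and sex moved none of them past the threshold, the RNAs moved together from mouse to mouse. For each of the 36 pairs of genes Pearson's r and Spearman's rho were computed on log2 CPM of the 48 mice after genotype and sex were taken out, with two-sided permutation tests adjusted over the 36 pairs. In all, 26 of the 36 pairs passed an adjusted p of 0.05. The share that would pass among pairs of other genes was not computed, so this count has no background beside it. Fkbp5, Plin4, Sult1a1, Zbtb16 and Tsc22d3 formed the closest block, with r between 0.769 (Zbtb16 and Sult1a1) and 0.927 (Sult1a1 and Plin4). The raw permutation p of each pair in that block was 1e-05, the smallest that 100000 permutations can give, and the adjusted p 2.25e-05.

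Within the block, Fkbp5 correlated with Plin4 at r = 0.900 (rho 0.896), with Zbtb16 at r = 0.884 (rho 0.894), with Sult1a1 at r = 0.883 (rho 0.854) and with Tsc22d3 at r = 0.825 (rho 0.794). Without the 2 mice farthest from the median of Fkbp5 the same r were 0.883, 0.881, 0.860 and 0.801. So a mouse with much co-chaperone RNA also had much RNA of the lipid droplet coat, of the sulfotransferase and of GILZ. Within the 6 columns of the sample plate, 8 mice each, r of Fkbp5 and Plin4 lay between 0.765 and 0.970, and r of Sult1a1 and Plin4 between 0.902 and 0.947. Within males alone r of Fkbp5 and Plin4 was 0.828, and within females alone 0.943.

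**Figure D2:**
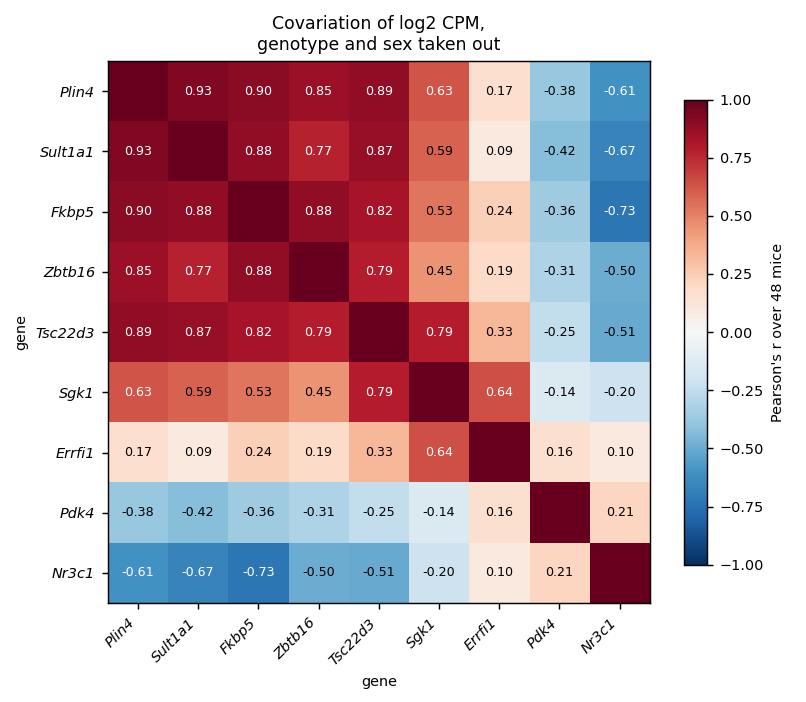
Pearson's r of each pair of the 9 genes over 48 mice, on log2 CPM with genotype and sex taken out (red positive, blue negative). Plin4, Sult1a1, Fkbp5, Zbtb16 and Tsc22d3 form a block at 0.77 to 0.93, Sgk1 joins it through Tsc22d3 (0.79), and Nr3c1 is negative with the block.

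Sgk1, the kinase, was tied most closely to Tsc22d3, at r = 0.789 (rho 0.757, permutation adjusted p = 2.25e-05), and less to Plin4 (0.628), Sult1a1 (0.593), Fkbp5 (0.534) and Zbtb16 (0.451), each past the threshold. It was also the partner with the highest r for Errfi1, at 0.641 (rho 0.623, permutation adjusted p = 2.25e-05), and r was 0.520 without the 2 mice farthest from the median of Sgk1. Errfi1, the EGF receptor inhibitor, passed with Tsc22d3 (r = 0.332, permutation adjusted p = 0.0299), although its rho of 0.272 with that gene did not (permutation adjusted p = 0.0789). With Fkbp5, Zbtb16, Plin4 and Sult1a1 it had r of 0.242, 0.193, 0.165 and 0.094, none past the threshold.

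The receptor's own RNA ran against that of 5 of its targets. Nr3c1 correlated with Fkbp5 at r = -0.726 (rho -0.646, permutation adjusted p = 2.25e-05), with Sult1a1 at r = -0.671 and with Plin4 at r = -0.608. With Tsc22d3 r was -0.506 and with Zbtb16 -0.5, both past the threshold. Its r with Fkbp5 was -0.660 without the 2 mice farthest from the median of Nr3c1 and negative in 6 of 6 plate columns, from -0.932 to -0.526. Msh3+/- male 2, the mouse with the least Nr3c1, is among the 3 libraries far out on the second principal component, and without those 3 r was -0.731. With Sgk1 (-0.205), Pdk4 (0.212) and Errfi1 (0.095) no relation passed. The size of the movement was small for the receptor: Msh3+/- male 2, at 103 CPM of Nr3c1, had 51.0 CPM of Fkbp5. Q140 x Msh3+/- female 4, at the highest 151 CPM, had 32.3 CPM of Fkbp5. That is above the median of 27.2 CPM over all mice, so this mouse goes against the relation.

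Pdk4 ran weakly against the block. Its r was -0.423 with Sult1a1 (permutation adjusted p = 0.00506), -0.379 with Plin4 (0.0131), -0.356 with Fkbp5 (0.0187) and -0.309 with Zbtb16 (0.0449), the values in parentheses being permutation adjusted p. The last did not pass without the 3 libraries with the highest Ttr (r = -0.296, permutation adjusted p = 0.0678), nor without the 3 far out on the second principal component (r = -0.306, permutation adjusted p = 0.0571). In males alone none of these 4 passed, at r of -0.412, -0.376, -0.292 and -0.302. In females alone the pair with Plin4 (r = -0.395, permutation adjusted p = 0.0705) and that with Zbtb16 (r = -0.314, permutation adjusted p = 0.155) did not pass. In 1 of 6 plate columns each of the 4 r of Pdk4 was positive. Its r with the mean of the 7 other targets was -0.293, against 0.914 for Tsc22d3, 0.846 for Plin4 and 0.828 for Fkbp5.

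**Figure D3:**
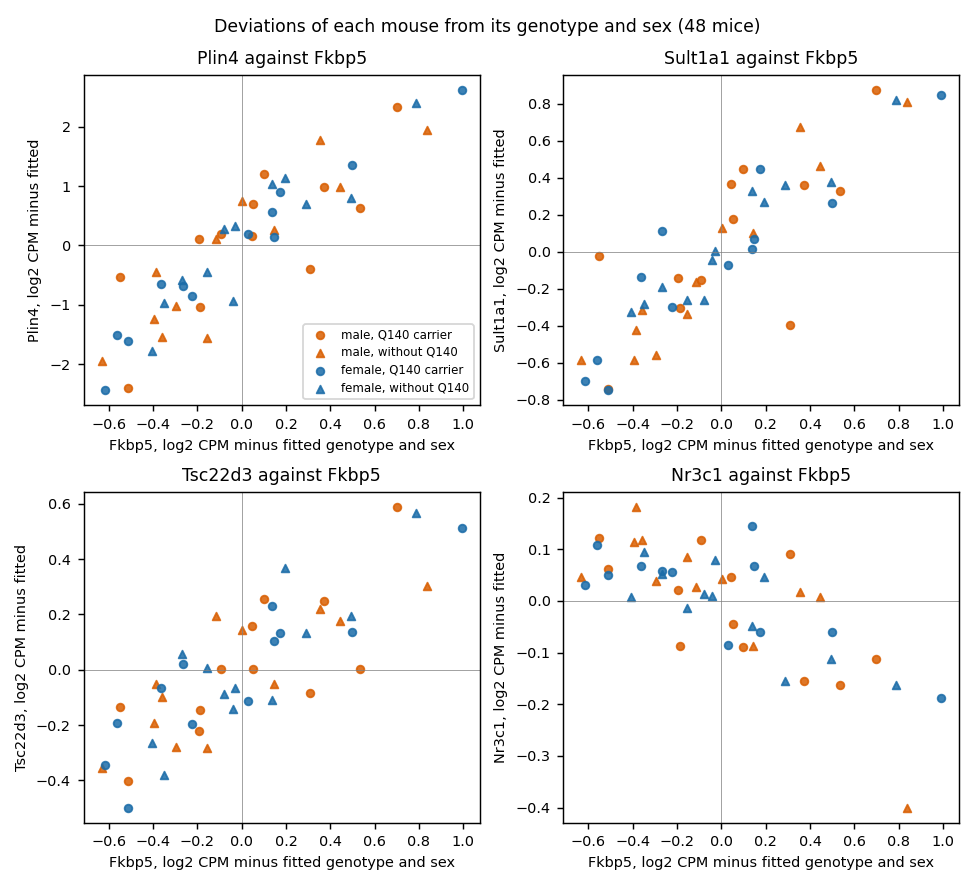
Each point is 1 mouse, and both axes give log2 CPM minus the value fitted for its genotype and sex, with Fkbp5 on the x axis of all panels (orange male, blue female, circles Q140 carriers, triangles mice without Q140). Plin4, Sult1a1 and Tsc22d3 rise with Fkbp5 (r = 0.900, 0.883 and 0.825), Nr3c1 declines (r = -0.726), and carriers and mice without Q140 lie along the same cloud.

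The pairs whose r differed between the sexes over single mice were pairs of Errfi1. Its r with Tsc22d3 was -0.166 in males and 0.687 in females, after genotype and sex were taken out over all mice, and the difference of -0.853 passed when the sex labels were permuted (permutation adjusted p = 0.00684 over 36 pairs). With Sgk1 r was 0.201 in males and 0.844 in females (permutation adjusted p = 0.0124), and with Sult1a1 -0.368 in males and 0.498 in females (permutation adjusted p = 0.0282). Q140 x Msh3+/- female 1, the mouse with the highest Fkbp5, also had the highest Errfi1, at 34.1 CPM. Without that mouse the permutation adjusted p was 0.0112 for Tsc22d3, 0.0371 for Sgk1 and 0.0682 for Sult1a1, with a difference of -0.698 for the last. Each mouse's column in the count table is named by a stem and a number, and each stem held mice of 1 sex only, so permuting single mice ignores that mice of a stem resemble each other. With 1 mean per stem, 15 of males and 12 of females, the difference was -1.05 for Tsc22d3, -0.55 for Sgk1 and -1.06 for Sult1a1, with permutation adjusted p of 0.128, 0.259 and 0.128, and 0 of the 36 pairs passed (6 at an unadjusted permutation p under 0.05). For no pair within the block of 5 did the difference between the sexes pass, and r there was at least 0.752 in males and 0.766 in females.

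The search was then widened to all genes by asking, after the correlations had been seen, which RNAs followed Fkbp5. Log2 CPM of Fkbp5 was entered in edgeR's model beside genotype and sex, and the slope is the log2 change of a gene per 2-fold higher Fkbp5. Of 20009 other genes 1425 passed (7.12%), 751 with a positive slope (3.75%) and 674 with a negative one (3.37%), and the median slope of all genes was -0.0018. Of the 8 other genes examined here 5 passed with a positive slope and 1 with a negative one, which is the covariation above on another scale. Plin4 had the steepest slope at 2.74 ± 0.18 (SE, edgeR adjusted p = 7.33e-16), followed by Sult1a1 at 0.96 ± 0.07, Zbtb16 at 0.69 ± 0.05, Tsc22d3 at 0.51 ± 0.05 and Sgk1 at 0.34 ± 0.08 (adjusted p = 0.00259). Nr3c1 had a slope of -0.19 ± 0.03 (adjusted p = 4.58e-06), while Pdk4 at -0.12 ± 0.05 (adjusted p = 0.14) and Errfi1 at 0.07 ± 0.04 (adjusted p = 0.331) did not pass, all in edgeR's quasi-likelihood test. In males alone the slope of Sgk1 was 0.17 ± 0.09 (edgeR adjusted p = 0.429).

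Other known glucocorticoid targets followed Fkbp5 as well. Of 25 such genes tested, 16 had a positive slope past the threshold, 1 a negative one and 8 did not pass, beside 3.75% and 3.37% of all genes, and their median slope was 0.23. This list, like the others used here, was chosen with earlier results of these data known, so these shares are a description and not an independent test. Hif3a, a subunit of the hypoxia-inducible factors, had a slope of 1.30 ± 0.10 (edgeR adjusted p = 3.15e-14) and Map3k6, a kinase, one of 0.84 ± 0.08. Angptl4, an inhibitor of lipoprotein lipase, had 0.70 ± 0.13, Cdkn1a, which encodes the cell cycle inhibitor p21, 0.57 ± 0.12, and the transcription factor Cebpd 0.52 ± 0.10. The metallothioneins Mt2 and Mt1, which bind zinc, had 0.44 ± 0.05 and 0.31 ± 0.04, the receptor tyrosine kinase Mertk 0.44 ± 0.04, and Nfkbia, the inhibitor of NF-kappa B, 0.35 ± 0.07. Klf9, a transcription factor induced by the hormone, had 0.19 ± 0.04.

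Dusp1 and Per1, which neuronal activity also induces, had negative slopes. Dusp1, a phosphatase of MAP kinases, had a slope of -0.61 ± 0.17 (edgeR adjusted p = 0.0207), and Per1, a clock gene with receptor elements, one of -0.32 ± 0.11 that missed the threshold (edgeR adjusted p = 0.0559). With the plate column in the model, or in either sex alone, 0 of the 25 targets passed with a negative slope. In males alone 7 of the 25 passed with a positive slope and in females alone 15. Each fit within a sex held 24 mice, and over all genes 339 passed in males and 385 in females. The cause of the lower counts was not tested.

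**Figure D4:**
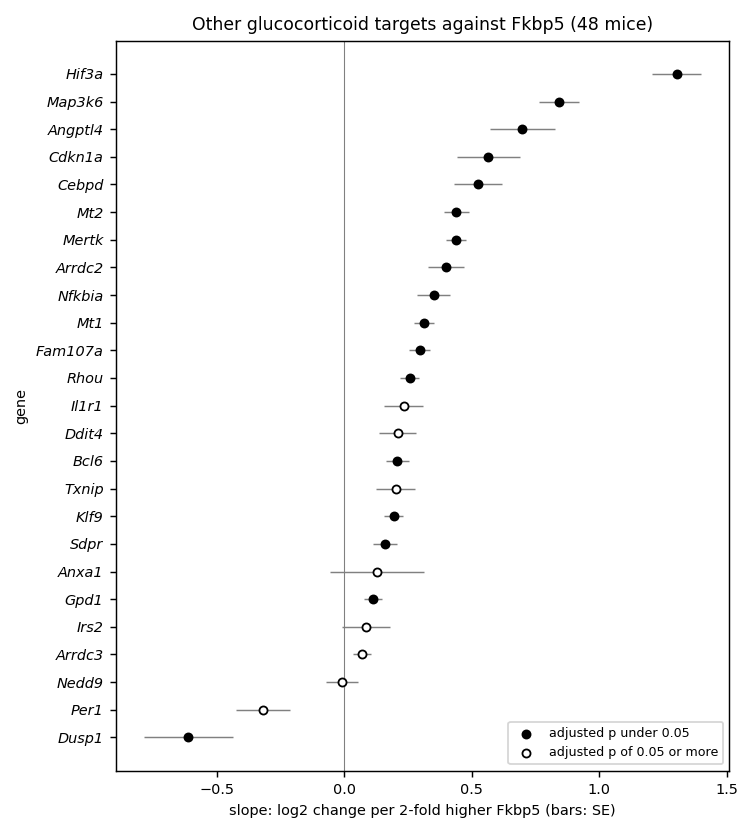
Slope of 25 other glucocorticoid targets on Fkbp5 (log2 change per 2-fold higher Fkbp5, over 48 mice, with bars for the SE), ordered by slope, with filled points where edgeR's adjusted p was under 0.05. Hif3a stands at 1.30, 16 filled points lie right of 0, and Dusp1 alone is filled left of 0, at -0.61.

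The receptor's partners were examined in the same way. Of 11 genes of the mineralocorticoid receptor, chaperones and co-chaperones 1 passed: Nr3c2, the mineralocorticoid receptor, with a slope of -0.10 ± 0.03 (edgeR adjusted p = 0.0222), a share near the 7.12% of all genes. Fkbp4, the co-chaperone that opposes Fkbp5 at the receptor, had a slope of 0.01 ± 0.03 and Hsp90ab1, a chaperone of the receptor, one of -0.03 ± 0.03. Of 6 genes of steroid access and metabolism 0 passed, with Hsd11b1 at -0.07 ± 0.05 (edgeR adjusted p = 0.398).

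Immediate early genes, which neuronal activity switches on within minutes, included several that ran against Fkbp5. Of the 15 tested 7 had a negative slope on Fkbp5 past the threshold and 0 a positive one, beside 3.37% and 3.75% of all genes. Their median slope was -0.53. Egr2 had -0.99 ± 0.31, Fos -0.76 ± 0.24, Junb -0.63 ± 0.18 and Egr1 -0.53 ± 0.16, with edgeR adjusted p of 0.0427, 0.0433, 0.0227 and 0.0321. The mean of the 15 genes, each standardized, correlated with Sult1a1 at r = -0.554 (rho -0.574, permutation adjusted p = 0.00102 over 153 pairs of gene and list). With Errfi1, itself induced by growth factors, r was positive at 0.452 (rho 0.466, permutation adjusted p = 0.00918). The correlations with list means, here and for the cell types below, permuted single mice, of which some share a column-name stem. They were not repeated with 1 mean per stem. Of 15 clock genes 3 passed on Fkbp5, beside 7.12% of all genes. Nr1d1, a repressor of the clock, had a slope of -0.36 ± 0.05 (edgeR adjusted p = 4.64e-06). Per3 had 0.21 ± 0.03 and Cry1 0.23 ± 0.05, both members of the clock's negative limb.

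Cell type markers were set beside these relations, since in bulk tissue fewer cells of a type and less RNA per cell cannot be told apart. Of 8 astrocyte markers 1 passed on Fkbp5, beside 7.12% of all genes, the gap junction gene Gjb6 at 0.38 ± 0.04 (edgeR adjusted p = 9.5e-10), while Aqp4 had 0.02 ± 0.04 and Slc1a3 0.03 ± 0.03. The summed level of the 8 markers was 528 to 623 FPKM in Q140 carriers and 555 to 643 FPKM in mice without Q140. All 5 genes of the block correlated with the markers' standardized mean past the threshold by permutation. The r was 0.448 for Sult1a1 (permutation adjusted p = 0.00997), 0.408 for Plin4, 0.393 for Fkbp5, 0.382 for Zbtb16 and 0.374 for Tsc22d3. By rank that of Tsc22d3 did not pass (permutation adjusted p = 0.0912). Of 8 endothelial markers 3 had a negative slope past the threshold and 1 a positive one, beside 3.37% and 3.75% of all genes. The slopes were -0.30 ± 0.07 for Cldn5, -0.22 ± 0.05 for Tek, -0.18 ± 0.04 for Slco1a4 and 0.42 ± 0.05 for Ly6c1. The summed level of the 8 endothelial markers was 39.0 to 48.8 FPKM in Q140 carriers and 39.6 to 50.1 FPKM in mice without Q140. Sgk1 correlated with their standardized mean at r = -0.549 (permutation adjusted p = 0.00122). Errfi1 (-0.498), Plin4 (-0.384) and Tsc22d3 (-0.356) also passed by permutation. By rank only Sgk1 of these 4 passed (permutation adjusted p = 0.00918). Errfi1 also passed with the mural and meningeal markers, at r = -0.481 (permutation adjusted p = 0.00501, and 0.0121 by rank). With the microglia markers it passed at r = -0.457 (permutation adjusted p = 0.00862, and 0.0212 by rank). The 6 markers of striatal projection neurons, whose summed level was 41.6 to 56.9 FPKM in Q140 carriers and 39.4 to 52.9 FPKM in mice without Q140, all had a slope above 0, and the dopamine receptor gene Drd2 passed at 0.71 ± 0.18 (edgeR adjusted p = 0.00643). Their standardized mean correlated with Errfi1 at r = 0.503, with Fkbp5 at 0.493, with Sgk1 at 0.461, with Plin4 at 0.444, with Sult1a1 at 0.358 and with Nr3c1 at -0.432, each past the threshold by permutation. By rank only Fkbp5 and Plin4 of these passed (permutation adjusted p = 0.0299 and 0.0267), and without the 2 mice farthest from the median r was 0.273 for Fkbp5, 0.216 for Sgk1, 0.213 for Errfi1 and -0.218 for Nr3c1. Single markers also passed on Fkbp5 in 3 other lists, beside 7.12% of all genes. They were 1 of 8 for oligodendrocytes (Opalin, -0.62 ± 0.09), 1 of 4 for their precursors (Sox10, -0.21 ± 0.05) and 1 of 7 for microglia (Tmem119, 0.23 ± 0.04). Nr3c1 correlated with the markers of cortical excitatory neurons at r = 0.440 (rho 0.467, permutation adjusted p = 0.00997), and 0 of those 7 markers passed on Fkbp5. None of the 8 astrocyte or 8 endothelial markers had a median under 0.1 FPKM. Of the 8 choroid plexus markers 3 had a median under 0.1 FPKM and 6 could be tested, and of these 6 and the 5 blood markers 0 passed on Fkbp5 in edgeR. The part of these cell types in the covariation was not tested.

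Genes outside the lists were ranked by their likeness to the 8 targets, as r with the mean of the targets' standardized log2 CPM over the 48 mice with genotype and sex taken out, among 13124 genes with a mean of at least 1 CPM. The closest were Slc2a1, which encodes a glucose transporter, at r = 0.921, Wipf3 at 0.918, Smim3 at 0.916, and the syndecan gene Sdc4 at 0.904. Mfsd2a, a lipid transporter of the blood-brain barrier, followed at 0.902, then Usp54 at 0.898, Aff1 at 0.892 and Rin2 at 0.884. The closest to Nr3c1 were Opcml at 0.817, Pak7 at 0.783, Elmod1 at 0.767 and Trim33 at 0.761. These are descriptions of the same mice and carry no test.

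The mice also fell into sets whose members resembled each other. The labels do not say what a stem of the column names stands for. There were 27 stems, of which 15 were shared by 2 or more mice, 36 mice in all, and 13 of these spanned genotypes. The intraclass correlation is the share of the variance left after genotype and sex that lies between stems. Over all 48 mice and 27 stems it was 0.825 for Plin4, 0.756 for Tsc22d3, 0.669 for Sult1a1, 0.618 for Fkbp5, 0.569 for Zbtb16 and 0.529 for Sgk1. The median over all tested genes was 0.07, and 99.99% of genes were at or below the value of Plin4. For Nr3c1 and Pdk4 it was 0.311 each and for Errfi1 0.172.

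The pairs can be read mouse by mouse. Q140 x Msh3+/- female 1 and WT female 1 share a stem and had 30.3 and 21.0 CPM of Plin4, and 58.5 and 45.8 CPM of Fkbp5, the highest values of Plin4 in both groups. Q140 female 3 and WT female 3 share another stem and had 0.842 and 1.13 CPM of Plin4, and 17.3 and 20 CPM of Fkbp5, near the bottom of both groups. Msh3+/- males 1 and 2 share a stem and had 13.3 and 15.1 CPM of Plin4. Differences within pairs were then taken on log2 CPM with genotype and sex taken out, for pairs of mice from different groups only. Over the 23 such pairs that share a stem the median difference in Plin4 was 0.67, beside 1.24 over the 936 others. In Fkbp5 it was 0.21 beside 0.39. For Errfi1 it was 0.12 beside 0.10.

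**Figure D5:**
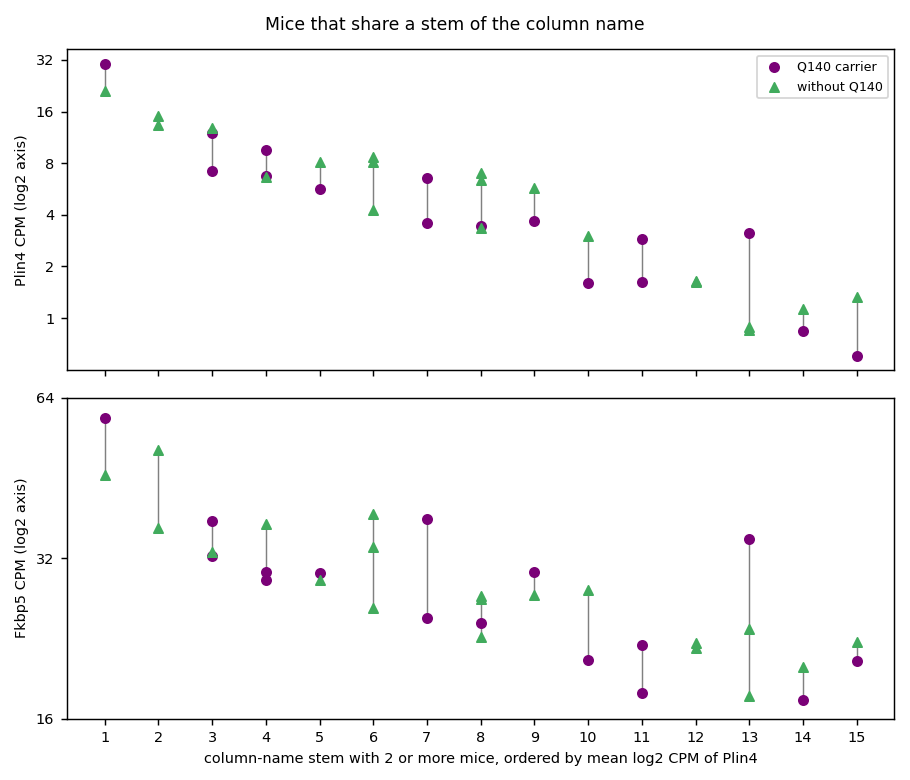
Plin4 (top) and Fkbp5 (bottom) in CPM on log2 axes for the 36 mice of the 15 column-name stems with 2 or more mice, ordered by the mean of Plin4, with a line joining mice that share a stem (circles Q140 carriers, triangles mice without Q140). Stem 1 joins Q140 x Msh3+/- female 1 and WT female 1 at 30.3 and 21.0 CPM of Plin4, and stem 14 joins Q140 female 3 and WT female 3 at 0.842 and 1.13 CPM.

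Mice with a shared stem are not fully independent, so the correlations of the 36 pairs were repeated with 1 mean per stem. Those with the means of lists were not, and their p-values treat mice of a stem as independent. Then 21 of the 36 pairs passed, among them all pairs within the block of 5 genes, with r of Fkbp5 and Plin4 at 0.911 and r of Nr3c1 and Fkbp5 at -0.824. The pairs that no longer passed were the 4 of Pdk4 with Sult1a1, Plin4, Fkbp5 and Zbtb16, at r of -0.360, -0.357, -0.331 and -0.261, and Tsc22d3 with Errfi1 at 0.363. By rank those 4 of Pdk4 passed on stem means as well, at rho of -0.559, -0.549, -0.456 and -0.455 with permutation adjusted p of 0.00637, 0.00714, 0.0291 and 0.0291. Inside stems the relations were uneven. Over the 36 mice, as deviations from the mean of their stem and with no test, r within the block of 5 lay between 0.344 for Zbtb16 and Sult1a1 and 0.8 for Fkbp5 and Plin4. It was -0.466 for Nr3c1 and Fkbp5, but -0.214 for Nr3c1 and Tsc22d3 and -0.064 for Nr3c1 and Zbtb16. Sgk1 and Zbtb16 had 0.101, and Pdk4 and Plin4 had 0.073, a sign opposite to that over all mice. With a random block for the stem in limma, 16 of the 25 other targets still had a positive slope on Fkbp5 past the threshold.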

How the data were processed

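The authors deposited a table of unnormalised whole-number read counts, with 48795 Ensembl genes in rows and 48 mice in columns. A second table of the same shape holds the authors' FPKM values, per the file headers. Per the labels' protocols, TruSeq stranded libraries were prepared from cortical RNA isolated by Qiagen RNeasy columns. GRCm38 (mm10), HTSeq 0.12.3, SAMtools 1.10 and STAR 2.7.5c are listed in the submitters' processing notes, without their roles. The annotation release, the strand setting and the authors' filters are not given in the sources used here, so reads of overlapping genes on opposite strands may be shared.

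The count tests ran in edgeR 4.0.16 under R 4.3.3. Filtering by filterByExpr on genotype removed 28785 genes and kept 99.963% of the counts. All 48 mice entered 1 model of genotype (6 groups) plus sex on TMM-scaled libraries, and 12 comparisons were tested with the quasi-likelihood F-test at a Benjamini-Hochberg adjusted p of 0.05. Intervals are 95% intervals from the fit, with 41 residual degrees of freedom before the pooling of spread across genes. Correlations used log2 CPM with a prior count of 1, genotype and sex taken out, and 100000 two-sided permutations of the mice. No library was a copy of another of its group: the chi-square statistic per degree of freedom was at least 4.09 in each of the 169 pairs. The fits were tested on simulated data.

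The alternatives were RLE size factors, no filter, a stricter filter (1 CPM or more in 7 mice or more), limma 3.58.1 on log2 FPKM plus 0.1 or plus 1 or with voom and quality weights, DESeq2 1.42.0, a replicate block, the plate column, a random block for the column-name stem, sets of libraries left out, fits of only the mice compared, no sex term, and each mouse left out in turn. The association with Fkbp5, the stem means and the difference of r between the sexes were added after the data were seen. The genes, the lists and the rule for naming list genes (those that passed a comparison, otherwise at most the 2 with the smallest p) were chosen with earlier results of these data known, and genes named for their slope on Fkbp5 were chosen after their values were seen. P-values measure the spread between these mice, of which some share a column-name stem. Positions are from GENCODE M21 (GRCm38).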

Additional observations from a re-analysis of the deposited data

Results flagged for a closer look

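In 11 of 54 sets of values, 1 gene in 1 group each, the highest or the lowest mouse stood apart from the rest of its group by more than Dixon's 95% limit. That limit flags about 1 in 20 groups by chance only where values are normally distributed. The values were CPM and not log2 CPM, and on that scale a right-skewed gene such as Plin4 is flagged more readily. The count of 11 is therefore not set against that rate. The flags are not independent of each other, since the genes move together and 3 mice hold 10 of the 11.

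Q140 x Msh3+/- female 1 was the highest of its group for Plin4 at 30.3 CPM (next 7.21), Fkbp5 at 58.5 CPM (next 37.9), Sult1a1 at 12.4 CPM (next 7.73), Sgk1 at 109 CPM (next 75.2) and Errfi1 at 34.1 CPM (next 28.8). WT female 1, which shares its column-name stem, was the highest of its group for Plin4 at 21.0 CPM (next 8.18), Fkbp5 at 45.8 CPM (next 29.1) and Zbtb16 at 138 CPM (next 98.9). Msh3+/- male 2 was the highest of its group for Fkbp5 at 51.0 CPM (next 36.5) and the lowest for Nr3c1 at 103 CPM (next 134). Q140 male 2 was the highest of its group for Tsc22d3 at 105 CPM (next 75.9).

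For 3 pairs the correlation differed between the sexes over single mice, by a permutation test of the difference adjusted over 36 pairs. The difference, males minus females, was -0.853 for Tsc22d3 and Errfi1, -0.643 for Sgk1 and Errfi1, and -0.867 for Sult1a1 and Errfi1, with 24 mice of each sex. The last did not pass without Q140 x Msh3+/- female 1 (-0.698, permutation adjusted p = 0.0682). Over 1 mean per stem, 15 stems of males and 12 of females, 0 of the 36 pairs passed, with differences of -1.05, -0.55 and -1.06 for the same 3 pairs and a smallest permutation adjusted p of 0.128.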

How the results depend on the processing

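The count of 0 of the 9 genes past the threshold was the same in each comparison under each alternative that gave a value, and the smallest adjusted p in any of them was 0.0521 (edgeR, Pdk4 in males against females without Q140 x Msh3-/- female 2). Titles of different groups share replicate numbers, but over all tested genes mice of the same number and sex did not deviate together (mean r from -0.055 to 0.002). Some mice of the same number also share a column-name stem, such as Q140 x Msh3+/- female 1 and WT female 1, so the numbers are not unrelated to the stems. The fit with a replicate block called 0 of the 9 genes. The comparison of the sexes could not be fitted with that block. The Q140 average of Fkbp5 was -0.003 with voom weights, and that of Tsc22d3 was 0.007 with the plate column and 0.002 without the 3 libraries far out on the second principal component. Leaving out 1 mouse at a time, the Q140 average ranged from -0.03 to 0.095 for Fkbp5, from -0.061 to 0.012 for Tsc22d3 and from -0.143 to 0.384 for Plin4. Q140 x Msh3+/- female 1 turned Fkbp5 and Plin4 (-0.143), Q140 male 2 turned Plin4 (-0.041) and WT female 1 turned Tsc22d3, none of them past the threshold in any setting.

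The count of pairs past the threshold was 26, 18 in males, 28 in females, 21 with 1 mean per stem and 25 or 26 otherwise. Directions turned for pairs with Errfi1: in males r was -0.148 with Fkbp5, -0.196 with Tsc22d3, -0.079 with Zbtb16, -0.392 with Sult1a1 and -0.278 with Plin4, and in females -0.177 with Nr3c1 and -0.078 with Pdk4. Sult1a1 and Errfi1 had r of -0.062 without the 2 mice farthest out, and Sgk1 and Pdk4 0.026 with genotype and sex left in. Genes that followed Fkbp5 numbered 1425, but 931 with the plate column, 385 in females and 339 in males. The targets with a negative slope numbered 0 in those 3 fits, 0 with Tsc22d3 in place of Fkbp5 and 2 without the 2 mice farthest out, beside 1, and those with a positive slope numbered 7 in males, beside 16. The slope of Errfi1 was -0.03 in males. Fits within a sex hold 24 mice in place of 48, and the causes of the changes in any of these fits were not tested.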
